A study of Mus musculus with 4 samples.

Results

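Prox1, the NeuroD genes Neurod1, Neurod2 and Neurod6, the related factor Bhlhe22, and the zinc finger genes Bcl11a and Bcl11b are transcription factor genes that act in the specification or maturation of dentate granule neurons. They were taken by symbol from a deposited table of 18042 genes, and all 7 were found there. The table compares dentate gyrus RNA of C57BL/6 mice at 14 days after birth, from Eed cKO animals (a conditional knockout of Eed, n = 2) and from WT animals (n = 2). Eed encodes a subunit of Polycomb repressive complex 2, which methylates lysine 27 of histone H3. The labels name neither the Cre driver nor the deleted exons of the knockout, so the cells that carry the deletion are not given. The whole dissected dentate gyrus was profiled, so each library mixes granule neurons with progenitors, interneurons, glia and any adjoining hippocampal tissue. In such tissue, fewer cells of a type and less RNA per cell cannot be told apart.

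Granule neurons are the excitatory neurons of the dentate gyrus, and they are born there well into postnatal life. In mouse, a cascade of progenitor factors leads to Neurod1, a basic helix-loop-helix (bHLH) protein that starts neuronal differentiation, while the homeodomain protein Prox1 is needed for granule neurons to take on and keep their identity in place of that of CA3 pyramidal neurons. Neurod2, Neurod6 and Bhlhe22 are bHLH factors shared by many excitatory neurons of the forebrain, and the Bcl11 proteins are zinc finger factors that control neuronal maturation and wiring.

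The 4 libraries are called Eed cKO A, Eed cKO B, WT A and WT B. The deposited file gives group means only, and whole read counts per library were recovered from them, with the match to the numbered animals unknown. The libraries held between 17263273 and 17789587 counts. Eed had 133 and 142 counts in Eed cKO libraries A and B against 251 and 301 in WT libraries A and B, or 50.2% of WT on average (limma, log2 fold change -0.98 ± 0.14, SE, adjusted p = 0.0189). The Eed call was lost without Eed cKO A (adjusted p = 0.128 by limma and 0.0942 by edgeR), and likewise without Eed cKO B (0.124 and 0.0962). The female-specific transcript Xist had 3809 counts in Eed cKO A and 8 to 11 in the other libraries, and the choroid plexus transcript Ttr had 110 in WT B and 23697 to 35706 in the others. Eed cKO A and WT B thus stood apart in these genes.

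All of the 7 factors had a negative fold change, as did 50.5% of all genes tested. Of the 7, 4 fell and 3 did not pass an adjusted p of 0.05. Prox1 and Neurod1 showed the deepest reductions, Bhlhe22 and Neurod2 intermediate ones, and Neurod6, Bcl11a and Bcl11b kept between 76.6% and 88.1% of their WT mean. Across all 15020 genes tested, 2.9% were called lower, 3.54% higher and 6.44% in either direction (limma, genotype as the only term, Benjamini-Hochberg adjustment over all genes tested). The Eed cKO libraries lay below both WT libraries for each of the 7, which was the case for 29% of all genes tested, while 56.8% had groups that did not overlap in either direction. The median log2 fold change of the 7 was -0.69, beside -0.0032 over all genes tested. All of them passed the filter on low values (10 normalized counts or more in 2 or more libraries) in both groups, since the lowest count of any of them was 627, at which counting error is 3.99% of the value.

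**Figure D1:**
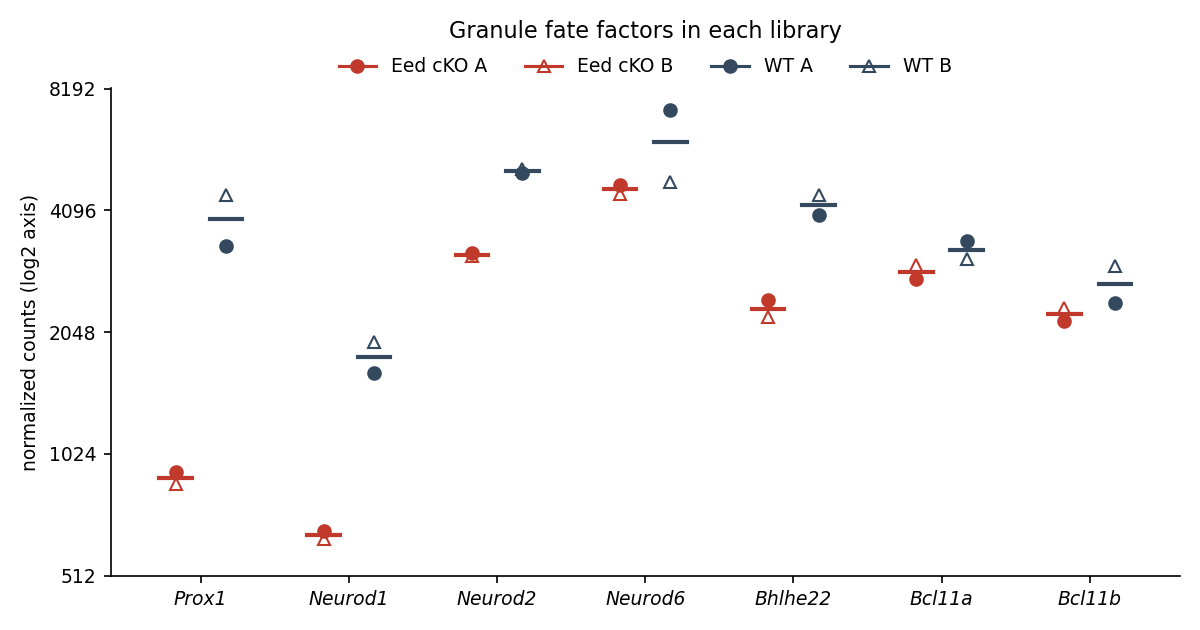
Normalized counts (log2 axis) of the 7 factors in each library, with a horizontal bar at each group mean (n = 2). The Prox1 and Neurod1 points of Eed cKO lie far below those of WT, the Neurod2 and Bhlhe22 points are also separate, and Neurod6 in WT A stands above its other 3 values.

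Prox1 (ENSMUSG00000010175; GRCm38 chromosome 1, 190118035 to 190170714, minus strand) had 925 and 860 counts in Eed cKO libraries A and B against 3381 and 4482 in WT libraries A and B. The WT libraries differed by 33.3% from each other, and both Eed cKO libraries lay far under the lower of them. After division by the size factors, Prox1 averaged 893 ± 42.1 normalized counts in Eed cKO and 3908 ± 790 in WT (SD, n = 2 each), so that it fell to 22.8% of WT. The log2 fold change was -2.11 ± 0.14 (SE; limma, adjusted p = 0.00489), and its 95% interval ran from -2.45 to -1.78. Of all genes tested, 35 had a lower log2 fold change, and Prox1 ranked 11 by p-value. An annotated antisense transcript, Prox1os, shares exon sequence with Prox1. It had 50 and 43 counts in Eed cKO libraries A and B against 88 and 151 in WT libraries A and B (limma, adjusted p = 0.0607). Whether the counting used strand is not stated in the sources used here, so reads of the shared exons cannot be assigned to either gene.

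Among the NeuroD genes, the difference was graded. Neurod1 (ENSMUSG00000034701; chromosome 2, 79452521 to 79456751, minus strand) had 662 and 627 counts in Eed cKO libraries A and B against 1640 and 1944 in WT libraries A and B. It averaged 645 ± 22.0 normalized counts in Eed cKO and 1781 ± 221 in WT (SD, n = 2 each), 36.2% of WT. This was a log2 fold change of -1.46 ± 0.10 (SE; limma, adjusted p = 0.00489), with the groups well apart. Cerkl, which shares exon sequence and strand with Neurod1, had 11 and 10 counts in Eed cKO libraries A and B against 20 and 14 in WT libraries A and B (limma, adjusted p = 0.35). Neurod2 (ENSMUSG00000038255; chromosome 11, 98325415 to 98329648, minus strand), which acts in later neuronal and synaptic maturation, had 3220 and 3150 counts in Eed cKO libraries A and B against 5126 and 5206 in WT libraries A and B. Replicates of Neurod2 were the closest of the 7 factors, with gaps of 1.6% in Eed cKO and 2.15% in WT, and it fell to 62.1% of WT (log2 fold change -0.69 ± 0.06, SE; limma, adjusted p = 0.00799).

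Neurod6 (ENSMUSG00000037984; chromosome 6, 55677822 to 55681263, minus strand), which is widely expressed in hippocampal pyramidal neurons, did not pass. It had 4756 and 4486 counts in Eed cKO libraries A and B against 7334 and 4819 in WT libraries A and B. WT A was 51.3% above WT B, while WT B lay close to both Eed cKO libraries. The log2 fold change was -0.35 ± 0.19 (SE; limma, adjusted p = 0.297), and the 95% interval allowed 57.1% to 107% of WT. The value turned on which WT library was used. Without WT B it was -0.65 (limma, adjusted p = 0.00813), and without WT A it was -0.06 (limma, adjusted p = 0.677). Of the 12 CA pyramidal markers, Iyd, Grik4, Dkk3, Spink8, Fibcd1, Crym and Ociad2 also had more counts in WT A than in WT B and the others had fewer, with Iyd at 222 and 118 counts. The list summed to 33092 and 35651 normalized counts in Eed cKO libraries A and B against 27063 and 26423 in WT libraries A and B. Most of the difference between the groups was from Nov. It held 6090 and 9171 of these counts in the Eed cKO libraries and 1352 and 2379 in the WT libraries. Of the 12 markers, 7 had positive and 5 negative fold changes. The part of these markers in the Neurod6 values was not tested.

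Neurod1 made up less of the NeuroD reads in Eed cKO. Its share of the summed counts of the 3 NeuroD genes was 7.66% and 7.59% in Eed cKO libraries A and B and 11.6% and 16.2% in WT libraries A and B, and the groups did not overlap. The sum itself was 8638 and 8263 counts in the Eed cKO libraries and 14100 and 11969 in the WT libraries. The ratio of Neurod1 to Neurod2 was 0.206 and 0.199 in Eed cKO libraries A and B against 0.32 and 0.373 in WT libraries A and B. That of Neurod2 to Neurod6 was 0.677 and 0.702 in the Eed cKO libraries and 0.699 and 1.08 in the WT libraries, so the groups overlapped. Ratios are given without a p-value, because an exact two-sided permutation test of 2 against 2 libraries cannot go below 0.333.

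**Figure D2:**
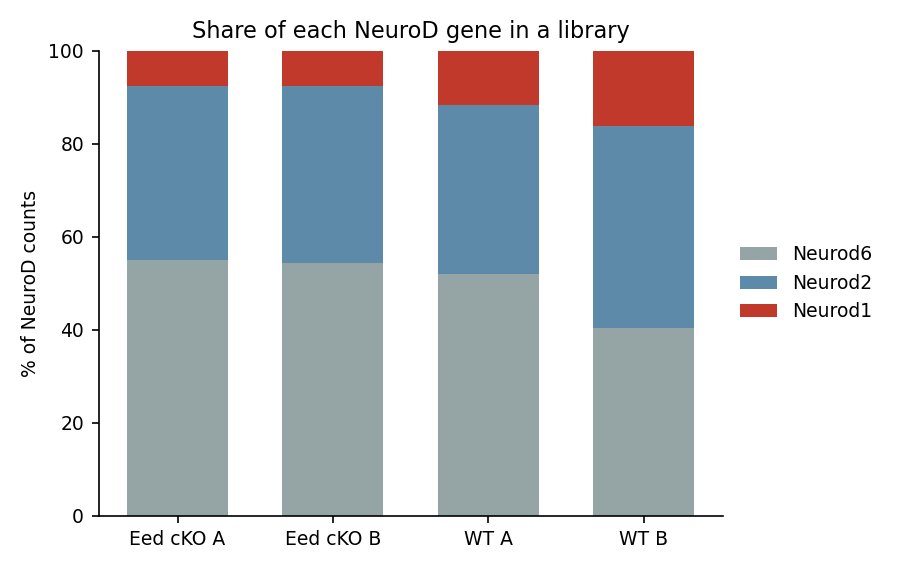
Share of each NeuroD gene in the summed NeuroD counts of a library, in percent. Neurod1 takes 7.66% and 7.59% in Eed cKO libraries A and B, against 11.6% and 16.2% in WT libraries A and B.

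The bases just before the start sites of Prox1 and of the NeuroD genes are shown because these genes span the range from the largest fall to no call. They cover 250 bases before the start, from RefSeq on GRCm38.p6, 5′ to 3′ on the gene's strand, and every E-box (the letters CANNTG, which read the same on both strands and which bHLH proteins bind) is in capitals. The windows lie at chr1:190170828-190171077 (Prox1, minus strand), chr2:79456637-79456886 (Neurod1, minus strand), chr11:98329646-98329895 (Neurod2, minus strand) and chr6:55681264-55681513 (Neurod6, minus strand). RefSeq and GENCODE M21 place some starts differently. By the GENCODE positions given above, part of the Neurod1 window and the last bases of the Neurod2 window lie inside the gene.
Prox1: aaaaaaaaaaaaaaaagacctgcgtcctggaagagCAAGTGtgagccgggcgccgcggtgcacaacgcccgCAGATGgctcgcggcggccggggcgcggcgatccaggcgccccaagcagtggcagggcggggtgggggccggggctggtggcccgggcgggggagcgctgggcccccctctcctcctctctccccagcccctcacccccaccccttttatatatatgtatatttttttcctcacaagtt
Neurod1: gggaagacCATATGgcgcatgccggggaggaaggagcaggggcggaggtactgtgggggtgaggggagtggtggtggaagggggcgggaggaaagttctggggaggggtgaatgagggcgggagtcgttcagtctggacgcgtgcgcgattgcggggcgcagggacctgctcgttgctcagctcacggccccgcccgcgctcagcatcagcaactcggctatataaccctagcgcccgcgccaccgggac
Neurod2: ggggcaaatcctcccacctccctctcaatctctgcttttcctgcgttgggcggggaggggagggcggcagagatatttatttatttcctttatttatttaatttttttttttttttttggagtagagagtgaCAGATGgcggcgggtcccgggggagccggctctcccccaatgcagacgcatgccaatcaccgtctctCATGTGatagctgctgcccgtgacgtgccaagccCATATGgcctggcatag
Neurod6: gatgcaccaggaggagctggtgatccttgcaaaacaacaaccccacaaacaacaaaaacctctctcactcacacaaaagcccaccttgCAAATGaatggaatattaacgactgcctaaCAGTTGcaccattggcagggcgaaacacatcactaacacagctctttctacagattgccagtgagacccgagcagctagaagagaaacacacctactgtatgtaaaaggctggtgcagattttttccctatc

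An E-box is common, present in 66.2% of 32851 RefSeq promoter windows of the same length, and the Prox1, Neurod1, Neurod2 and Neurod6 windows held 2, 1, 3 and 2. The form CAGATG, searched on both strands and a subset of the E-box, was in the Prox1 and Neurod2 windows and in 14.4% of all windows. Polycomb repressive complex 2 is known to gather at CpG-rich promoters. The Prox1 and Neurod1 windows held 20 and 22 CpG dinucleotides, the Neurod2 window 11 and the Neurod6 window 3, beside a median of 6 over all windows. Bcl11a and Bcl11b, which did not pass, had 16 and 9, and a second Prox1 window at chr1:190169516-190169765 had 11. Promoter sequence for Bhlhe22 is not shown. These are descriptions of the sequence, and binding and histone methylation were not measured in these libraries.

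Bhlhe22 (ENSMUSG00000025128; chromosome 3, 18054174 to 18057517, plus strand), a bHLH repressor that works with the protein Prdm8 in mouse cortical neurons, fell clearly. It had 2461 and 2223 counts in Eed cKO libraries A and B against 4018 and 4489 in WT libraries A and B, with a wide gap between the groups. It averaged 2343 ± 158 normalized counts in Eed cKO and 4227 ± 348 in WT (SD, n = 2 each), or 55.4% of WT. The log2 fold change was -0.85 ± 0.09 (SE; limma, adjusted p = 0.00973). Prdm8 also fell, to 73.7% of WT, with 1329 and 1172 counts in Eed cKO libraries A and B against 1722 and 1696 in WT libraries A and B (limma, adjusted p = 0.0343).

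The Bcl11 genes did not pass. Bcl11a (ENSMUSG00000000861; chromosome 11, 24078056 to 24174123, plus strand) had 2778 and 2986 counts in Eed cKO libraries A and B against 3478 and 3116 in WT libraries A and B. The nearest libraries of the groups, Eed cKO B and WT B, were close to each other. Its log2 fold change was -0.18 ± 0.08 (SE; limma, adjusted p = 0.239), with a 95% interval of 76.6% to 101% of WT. Bcl11b (ENSMUSG00000048251; chromosome 12, 107910403 to 108003602, minus strand), also called Ctip2 and needed for granule neuron differentiation and mossy fibre synapses in mouse, had 2191 and 2343 counts in Eed cKO libraries A and B against 2443 and 2990 in WT libraries A and B. Here Eed cKO B and WT A were neighbours, and WT B was the highest. Its log2 fold change was -0.24 ± 0.11 (SE; limma, adjusted p = 0.239), with a 95% interval of 70.0% to 102% of WT, and without WT A it was -0.39 with a call (limma, adjusted p = 0.0324). The ratio of Bcl11a to Bcl11b was 1.27 in both Eed cKO libraries and 1.42 and 1.04 in WT libraries A and B, so it overlapped between the groups.

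**Figure D3:**
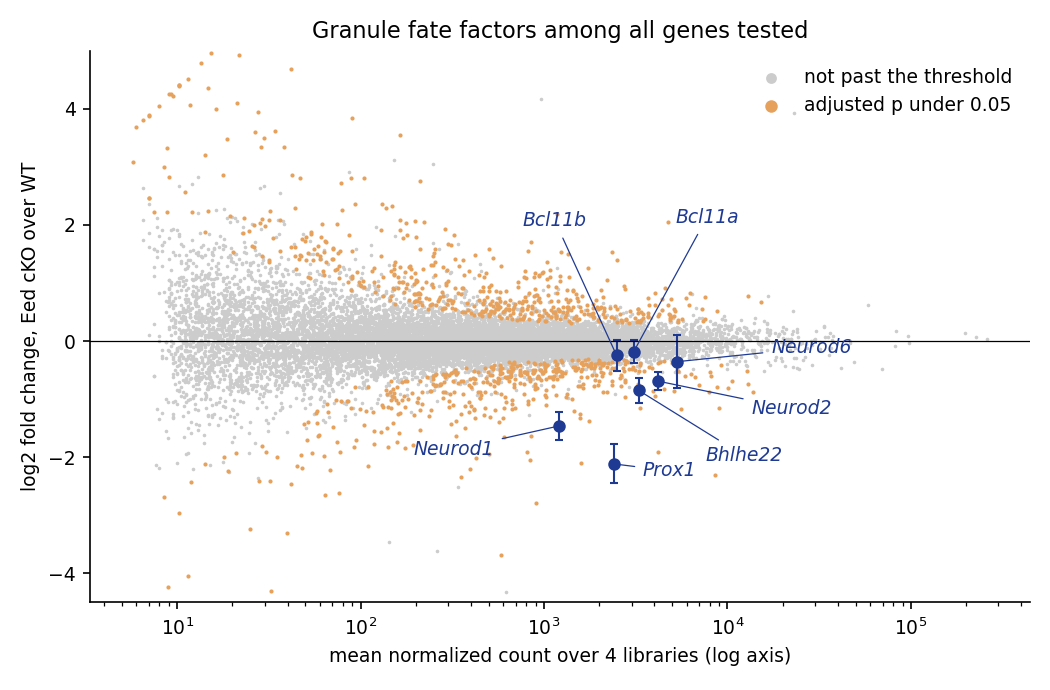
Log2 fold change (Eed cKO over WT) against the mean normalized count (log axis) for the genes tested, with the 7 factors and their 95% intervals in blue; 17 genes above and 1 below the plotted range are not shown. Prox1 and Neurod1 stand outside the cloud of genes of like abundance, and the intervals of Neurod6, Bcl11a and Bcl11b include 0.

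Per kilobase of annotated exon sequence (GENCODE M21), Neurod6 had the highest level in both groups and Neurod2 and Bhlhe22 came next. In Eed cKO these levels were 2150 ± 79.6, 1014 ± 11.4 and 701 ± 47.3 normalized counts per kilobase, and in WT they were 2807 ± 810, 1634 ± 24.6 and 1264 ± 104 (SD, n = 2 each). The lower part of the order differed between the groups. In Eed cKO, Bcl11b came next at 280 ± 14.5, followed by Neurod1 at 236 ± 8.06, Bcl11a at 219 ± 12.1 and Prox1 at 106 ± 5.02 normalized counts per kilobase. In WT, Neurod1 at 653 ± 80.9 and Prox1 at 466 ± 94.1 stood above Bcl11b at 333 ± 48.7 and Bcl11a at 249 ± 18.3. Neighbours in either order did not overlap between libraries, although with 2 libraries a group this is a weak statement, and lengths take all annotated exons as used. Per kilobase, Prox1 had the lowest level of the 7 in both Eed cKO libraries, while in both WT libraries it was above both Bcl11 genes. The ratio of Prox1 to Bcl11b counts was 0.422 and 0.367 in Eed cKO libraries A and B against 1.38 and 1.5 in WT libraries A and B.

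Summed over the list, the other granule neuron markers were less reduced than Prox1, although Lct, at 21.7% of WT, was as low. Of 12 granule neuron markers, 6 fell, none rose and 6 did not pass, with a median log2 fold change of -0.69, and 1 of the 6 was Prox1 itself. Pdzd2 and Trpc6, at 110% and 102% of WT, were among those that did not pass. Leaving out Prox1, the other 11 markers summed to 6350 and 5702 normalized counts in Eed cKO libraries A and B against 7720 and 10167 in WT libraries A and B, or 67.4% of WT. Calb1 held the most of these counts, 1997 and 1719 in the Eed cKO libraries and 1661 and 2678 in the WT libraries. Its groups overlapped, at 85.65% of WT (limma, adjusted p = 0.64). None of the 11 markers was at 0 in any library. The ratio of Prox1 to that sum was 0.145 and 0.151 in Eed cKO libraries A and B against 0.434 and 0.439 in WT libraries A and B, which is 34.0% of the WT ratio. For Neurod1 the ratio was 0.104 and 0.11 in the Eed cKO libraries against 0.21 and 0.191 in the WT libraries. For Bcl11b, itself at 84.0% of WT, the ratio ran the other way, as the sum was lower still at 67.4%. It was 0.344 and 0.412 in Eed cKO libraries A and B against 0.314 and 0.293 in WT libraries A and B. Neurod2, Neurod6 and Bcl11a overlapped between the groups on this scale, and Bhlhe22 was at 81.4% of its WT ratio. The markers were chosen with results of these samples known, so their fall is not independent evidence. The number that fell was 1 without Eed cKO A and 2 in the run without Eed cKO B (limma), and 3 in each case by edgeR.

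**Figure D4:**
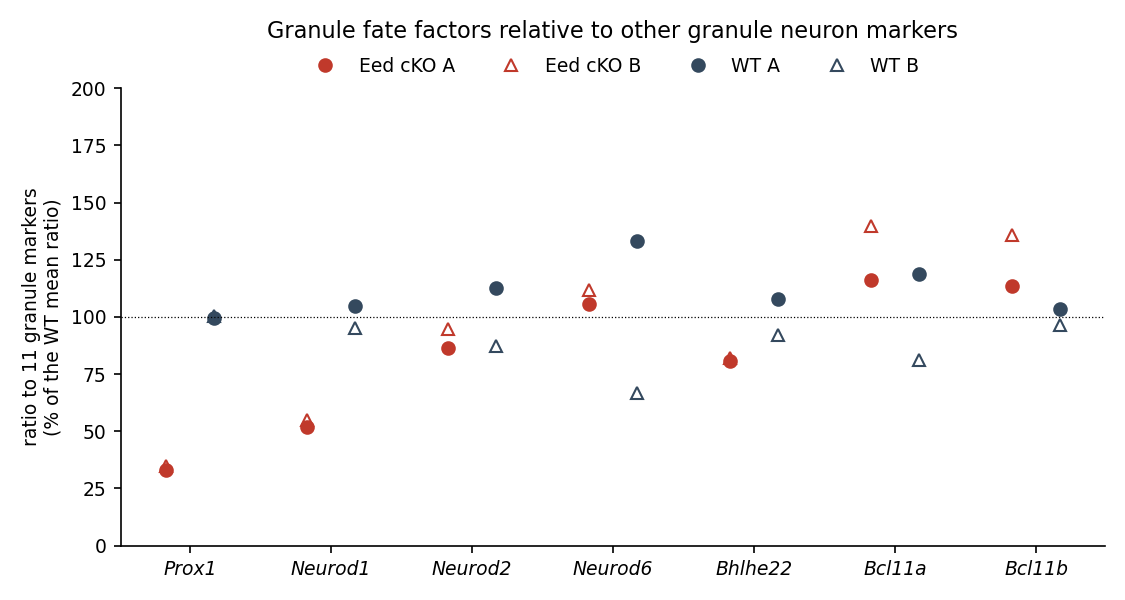
Ratio of each factor to the summed normalized counts of 11 other granule neuron markers, in percent of the mean WT ratio (dotted line). Prox1 and Neurod1 remain at 34.0% and 53.5% in Eed cKO on average, whereas Bcl11b is at 125%. Bcl11b counts themselves are at 84.0% of WT, and the summed markers at 67.4%.

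Prox1 and the other factors are also made outside granule neurons, so markers of those cells were read beside them. Prox1 is known from interneurons of the caudal ganglionic eminence. All 11 markers of these cells had positive fold changes, where 50.5% of all genes tested had negative ones. Of the 11, 3 rose (Sp8, Npas1 and Nr2f2) and 8 did not pass. Their sums were 23737 and 21682 normalized counts in Eed cKO libraries A and B against 18438 and 19347 in WT libraries A and B. Of 8 markers of interneurons of the medial ganglionic eminence, Sst rose and 7 did not pass, with sums of 16218 and 16620 in the Eed cKO libraries and 12366 and 13609 in the WT libraries. Prox1 is also used in oligodendrocytes and in lymphatic endothelium. Of 10 oligodendrocyte markers, Sox10 rose and 9 did not pass, and the sums were 76684 and 65861 against 77205 and 75928 for the same libraries. None of the 5 lymphatic markers tested passed in limma, where 3 (Lyve1, Flt4 and Reln) had an unadjusted p under 0.05. By edgeR and by DESeq2 0 were called too. The list summed to 2982 and 3024 normalized counts in Eed cKO libraries A and B against 2278 and 2730 in WT libraries A and B. Most of this was Reln, which is also a caudal interneuron marker. It held 2441 and 2523 of these counts in the Eed cKO libraries and 1807 and 2116 in the WT libraries. Of the others, Flt4 and Mmrn1 had positive fold changes and Lyve1 and Pdpn negative ones. Neurod2, Neurod6, Bcl11a and Bcl11b are shared with pyramidal and deep-layer cortical neurons. Of 12 CA pyramidal markers 5 rose and 1 fell, the last being Wfs1. Of 8 cortical neuron markers 4 rose (Sox5, Fezf2, Foxp2 and Crym) and 4 did not pass, with sums of 12156 and 13060 against 8962 and 8730 for the same libraries. Crym held 7574 and 7402 of these counts against 5432 and 4341. The lists share genes, so their changes are not separate. Crym is also among the pyramidal markers that rose, and Fezf2 among the other granule factors below. Gad1 and Gad2 are in both interneuron lists. None of these markers was at 0 in any library, and their part in the values of the 7 factors was not tested. In limma no gene of the pyramidal, interneuron, cortical, oligodendrocyte and lymphatic lists was called without Eed cKO A, or without Eed cKO B, although 7 and 6 pyramidal and 5 and 7 caudal interneuron markers then had an unadjusted p under 0.05. By edgeR, 2 and 0 pyramidal, 0 and 2 caudal interneuron, 1 and 0 medial interneuron and 1 and 2 cortical markers were called. Without WT B, 4 pyramidal markers fell, 2 medial interneuron markers rose and 1 lymphatic marker rose, and without WT A, 2 medial interneuron markers rose and 1 lymphatic marker fell (limma).

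Genes that work before or beside Neurod1 in the lineage changed in some members. Of 14 tested, 5 fell, none rose and 9 did not pass, with a median log2 fold change of -0.29. Sox11, which acts in newborn neurons, had 623 and 570 counts in Eed cKO libraries A and B against 2403 and 2772 in WT libraries A and B (limma, adjusted p = 0.00329). Eomes, the factor of intermediate progenitors, had 58 and 26 against 150 and 209 for the same libraries (limma, adjusted p = 0.0341). The patterning genes Lhx2, Emx1 and Emx2 fell less deeply, to 68.1%, 67.4% and 70.2% of WT. The upstream factors Neurog2, Sox2 and Pax6 did not pass, with Neurog2 at 112 and 94 counts in Eed cKO libraries A and B against 106 and 85 in WT libraries A and B. Pax6 was at 145% of its WT mean and outside the range of WT (limma, adjusted p = 0.18). Neurog1 had at most 2 counts in a library and was not tested. In limma, Sox11 alone was called without Eed cKO A, and likewise without Eed cKO B, and 2 genes fell and 2 rose without WT B.

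The E proteins Tcf3, Tcf4 and Tcf12, with which NeuroD proteins and Bhlhe22 pair to bind DNA, did not pass. Tcf4 was at 74.5% of WT, and its groups did not overlap (limma, adjusted p = 0.0667). Tcf3 and Tcf12 overlapped between the groups, at 94.4% and 96.3% of WT. Id3, which keeps E proteins from DNA, was the single call among these 7 genes, with 445 and 555 counts in Eed cKO libraries A and B against 787 and 759 in WT libraries A and B (limma, adjusted p = 0.0406), and in limma this call was lost whichever of the 4 libraries was left out. All 7 had negative fold changes, with a median of -0.13, beside 50.5% of all genes tested with a negative one. Of 7 tested paralogues, only Neurod4 was called, with 4 and 5 counts in Eed cKO libraries A and B against 17 and 31 in WT libraries A and B (limma, adjusted p = 0.0496). It passed the filter through its WT counts alone, which fixed its direction, and the call was lost in edgeR and DESeq2. Prox2, Neurog2, Atoh7, Atoh8, Olig1 and Olig2 did not pass.

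Among 29 nuclear partners of the factors, Nr2f2 and Smarcd3 rose, Prdm8 fell and 26 did not pass, with a median of -0.13. Smarcd3, a subunit of the BAF chromatin remodelling complex, in which Bcl11 proteins take part, had 1216 and 1178 counts in Eed cKO libraries A and B against 888 and 844 in WT libraries A and B (limma, adjusted p = 0.019). The nuclear receptor gene Nr2f2 had 2246 and 1890 against 1406 and 1299 for the same libraries (limma, adjusted p = 0.0235). It also belongs to the interneuron markers above. The other BAF subunits listed did not pass, and neither did the listed subunits of the NuRD complex. In limma 0 of the 29 were called without Eed cKO A (5 at an unadjusted p under 0.05), and likewise without Eed cKO B (4), where edgeR called 0 and 1. Without WT A, 2 of them fell (limma).

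Of 4 genes reported to be controlled by one of the factors in mouse neurons, 2 fell and 2 did not pass. Dsp and C1ql2 are also among the granule neuron markers above, and so in the sum set against Bcl11b. Their changes are not separate from that list. The direction of that control, activation or repression, was not compared with these changes. Dsp, the desmosomal protein desmoplakin and a Bcl11b target in granule neurons, had 259 and 248 counts in Eed cKO libraries A and B against 542 and 624 in WT libraries A and B, or 43.8% of WT (limma, adjusted p = 0.00799). C1ql2, a synaptic organiser downstream of Bcl11b at mossy fibre synapses, was at 63.9% of WT and missed the threshold (limma, adjusted p = 0.0871), with 734 and 519 counts in Eed cKO libraries A and B against 902 and 1070 in WT libraries A and B. Sema3c, a semaphorin controlled by Bcl11a in cortical neurons, fell to 26.8% of WT, with 301 and 379 counts in Eed cKO libraries A and B against 1219 and 1332 in WT libraries A and B (limma, adjusted p = 0.00489). Cdh11, a cadherin controlled by Bhlhe22 and Prdm8, overlapped between the groups and did not pass. In limma Sema3c alone was called without Eed cKO A, and likewise without Eed cKO B, where Dsp had an adjusted p of 0.0804 and 0.0725 (0.0358 and 0.0403 by edgeR).

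Other transcription factors of granule neurons or hippocampal patterning moved in both directions. Of 18 tested, 7 fell, 3 rose and 8 did not pass, with a median of -0.19. Zbtb20, a zinc finger factor of hippocampal identity, had 5870 and 5301 counts in Eed cKO libraries A and B against 12358 and 12741 in WT libraries A and B (limma, adjusted p = 0.00511). Zbtb18 fell to 57.9% of WT, and Nfia, Nfib, Nfix, Klf9 and Egr3 were the others that fell. Fezf2, a factor of deep-layer cortical neurons, had 1307 and 1637 counts in Eed cKO libraries A and B against 637 and 730 in WT libraries A and B (limma, adjusted p = 0.013), and Meis2 and Etv1 also rose. In limma 0 of the 18 were called without Eed cKO A (11 at an unadjusted p under 0.05), and likewise without Eed cKO B (10), where edgeR called 3 and 2.

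**Figure D5:**
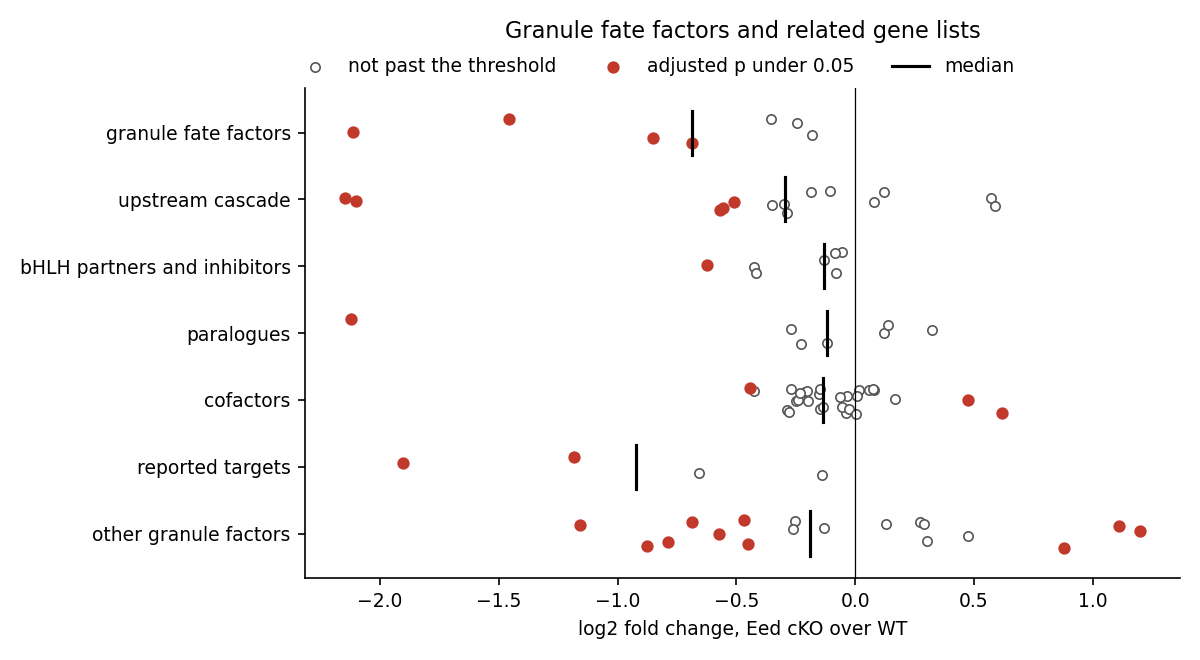
Log2 fold change (Eed cKO over WT) for the 7 factors and for the tested genes of 6 related lists, each point a gene and each black bar a median. The granule fate factors lie left of 0 throughout, with a median of -0.69, while the other granule factors spread to both sides.

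Among named genes averaging 50 normalized counts or more, the profiles over the 4 libraries nearest to that of Prox1 were those of Sox11, Fbln5, Lct, Gpr139 and Aldh1a1. Likeness was measured as the Euclidean distance between log2 profiles, each centred on its own mean, and these genes lay at 0.14, 0.23, 0.25, 0.34 and 0.34. They were at 21.7% to 24.6% of WT in Eed cKO. With 2 groups of 2 libraries, such a list mainly holds genes with a like fold change. Of the other factors, Neurod1 was nearest to Prox1, at a distance of 0.67 with 27 genes nearer, and Bhlhe22 and Neurod2 followed at 1.28 and 1.45.

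Fewer of the factors were called in fits that lacked an Eed cKO library, although the fold changes of Prox1 and Neurod1 moved little. Those fits take the variation within a group from the WT pair alone. The WT libraries lay further apart than the Eed cKO pair for each of the 7 factors, by 33.3% against 6.91% for Prox1. What led to the loss of calls was not tested. In limma 0 of the 7 factors were called without Eed cKO A (4 at an unadjusted p under 0.05) and Prox1 alone without Eed cKO B (adjusted p = 0.0488), while 7 and 31 genes of all tested were called. The log2 fold change of Prox1 was -2.16 without the first of these libraries and -2.07 without the second, and those of Neurod1 were -1.49 and -1.42. By edgeR, Prox1, Neurod1 and Bhlhe22 were called without Eed cKO A (adjusted p = 0.0281, 0.029 and 0.0468) and Prox1 and Neurod1 without Eed cKO B (adjusted p = 0.0205 and 0.0241). Without WT A or without WT B, the 4 factors that fell were again called in both tools. In the authors' deposited table, the same 4 factors passed an adjusted p of 0.05, with Prox1 at rank 5 of all genes by p-value and Neurod1 at rank 15.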

How the data were processed

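Reads had been aligned with HISAT2 2.1.0 to GRCm38 and compared with DESeq2 1.2.0, per the submitters' processing notes; neither the read counter nor its strand setting or annotation is stated there. Per the file headers, 1 deposited table holds the authors' normalized signal averaged by group and in all, log2 fold changes and their errors, the Wald score, and the raw and adjusted p-value. The group signal averages 2 counts, each divided by its size factor, so whole reads per library were recovered for 100% of genes (tolerance 1e-08).

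Recovered counts, scaled by the size factors (0.996 to 1.01), were tested with limma 3.58.1 (intensity trend, log2(normalized count + 1), two-sided). Fold changes on this scale understate the change of low genes. Genes below 10 normalized counts in more than 2 libraries were left out. Positions and exon lengths are from GENCODE M21, in which 18030 of the 18042 deposited gene IDs were found. edgeR 4.0.16, DESeq2 1.42.0 and limma-voom ran on the recovered counts, and all were tested on simulated data. Where a library is left out, the lone library of its group is assumed to vary like the other group. Named genes are the 7 factors, Eed, up to 3 called genes of smallest p per related list (or the 1 of smallest p) and the 5 nearest to Prox1. Any other gene was named with its values known. The factors and lists were chosen with earlier results of these data known. The design text calls the replicates biological. Counting intervals cover counting error only, and with 2 libraries a group, p-values rest on few degrees of freedom. The main test, limma on log values, was kept after counts had been recovered.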

Additional observations from a re-analysis of the deposited data

How the results depend on the processing

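The count of genes past the threshold, 967 with the settings used, was 476 with no filter on low values and 999 with edgeR on the recovered counts. Over the rest of the 9 alternatives that kept all libraries it was 937 to 1067, the highest by DESeq2 with no filter of this kind. The same 4 factors passed in each of these 9. Leaving out a library in limma or, chosen after seeing the data, in edgeR moved the count of genes to between 7 and 1723, and that of factors past the threshold, all of them lower, to between 0 and 5 of 7. Each lower end came without an Eed cKO library. The log2 fold change kept its sign in all 17 alternatives for each factor, and ran from -2.32 to -1.90 for Prox1, -1.59 to -1.32 for Neurod1, -0.70 to -0.66 for Neurod2, -0.93 to -0.75 for Bhlhe22, -0.65 to -0.06 for Neurod6, -0.26 to -0.11 for Bcl11a and -0.39 to -0.08 for Bcl11b. Of the other named genes, Neurod4 lost its call under 6 of the 9 alternatives with all libraries and was filtered out at 50 normalized counts, Emx2 with DESeq2, and Gpr139, Id3, Nr2f2 and Prdm8 with no filter; the cause was not tested. Of 18 such genes, 15 lost their call in limma and 10 in edgeR without Eed cKO A, and 14 and 9 did so without Eed cKO B. Calls per list with no filter, against those with it, were 3 against 6 for granule neuron, 2 against 6 for CA pyramidal, 0 against 3 for caudal and 0 against 1 for medial interneuron, 2 against 4 for cortical and 0 against 1 for oligodendrocyte markers, and 3 against 5 for the upstream genes, 0 against 1 for E and Id proteins, 1 against 3 for nuclear partners and 6 against 10 for other granule factors. DESeq2 called 3 upstream genes, 2 E and Id proteins and 3 of the 4 reported targets. No paired analysis was possible because the deposited columns carry no replicate numbers.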
